A study of Homo sapiens with 36 samples.

Results

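Transcript levels of 10 genes of the NODAL and bone morphogenetic protein (BMP) pathways were followed in cisplatin-resistant embryonal carcinoma cells. The genes were NODAL, GDF3, TDGF1, LEFTY1, LEFTY2, FOXH1, ID1, ID2, ID3 and SMAD7, chosen by name. They are 10 of the 18078 genes listed in at least 1 of 3 gene tables, and all 10 were present in each table. Each table held 12 RNA-seq libraries in 4 arms of 3, for 36 libraries in all.

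NT2/D1-A4 and 2102EP-C1 are clonal cisplatin-resistant derivatives of the human testicular germ cell tumor lines NT2/D1 and 2102EP, so each line stands for 1 clone. In the first and second experiments, these lines received vehicle (VC), 0.5 µM cisplatin for 6 h (Cisplatin), 1 µM GSK-J4 for 3 days (GSK-J4), or GSK-J4 followed by cisplatin (Combination), and RNA was taken a day after cisplatin. GSK-J4 is a small molecule inhibitor of KDM6A and KDM6B, the demethylases that remove the repressive H3K27me3 mark laid down by polycomb complexes. In the third experiment, 2102EP-C1 cells carried the empty vector pLKO1 or shRNAs against KDM6A and KDM6B (sh6A+6B), each with or without the same cisplatin pulse. The knockdown cells were selected pools with 1 shRNA per gene, so an effect particular to an shRNA sequence cannot be told apart from loss of the demethylases. The series calls the 3 libraries of an arm biological triplicates, and each table was normalized by itself.

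NODAL and GDF3 are secreted ligands of the TGFβ family. They signal through activin receptors together with the co-receptor CRIPTO, the product of TDGF1, and activate SMAD2 and SMAD3, which act on DNA with partners such as FOXH1. LEFTY1 and LEFTY2 are secreted inhibitors of NODAL and are themselves induced by the pathway, which closes a negative feedback loop. BMP ligands signal through SMAD1 and SMAD5, whose best known direct targets include the inhibitor of differentiation genes ID1, ID2 and ID3. SMAD7 is an intracellular inhibitor of both branches. NODAL, TDGF1, GDF3 and the LEFTY genes are characteristic of undifferentiated pluripotent cells and embryonal carcinoma.

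The genes lie on 8 chromosomes of GRCh38.p14. NODAL spans chr10:70431936-70447951 (minus strand), GDF3 chr12:7689784-7695775 (minus), TDGF1 chr3:46574535-46582457 (plus) and FOXH1 chr8:144473412-144475849 (minus). LEFTY1 at chr1:225886282-225889146 and LEFTY2 at chr1:225936603-225941220 are neighboring paralogs on the minus strand. ID1 spans chr20:31605289-31606510 (plus), ID2 chr2:8682056-8684461 (plus), ID3 chr1:23557926-23559501 (minus) and SMAD7 chr18:48919853-48950965 (minus). Values count reads over the exons of each gene, from 2 exons in the representative transcript of ID1 or GDF3 to 6 in that of TDGF1.

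Sequence similarity limits how exactly some of these genes can be counted. Of all stretches of 50 bases in the representative transcript, 54.7% for LEFTY1, 29.6% for LEFTY2 and 38.6% for TDGF1 also occur in the transcripts of another gene. LEFTY1 shared 31.3% of its stretches with LEFTY2, and TDGF1 shared 38.1% with TDGF1P3, listed as CRIPTO3 in both 2102EP-C1 tables at 5.70 to 8.42 CPM. The shares were 2.18% for FOXH1, 1.12% for ID2 and 0 for the other members. FOXH1 overlaps KIFC2 and ID3 overlaps the uncharacterized LOC124903876 in RefSeq, and the strand setting of the count was not given, so reads of these overlaps are uncertain.

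Promoter sequence was available from RefSeq (GRCh38.p14) for 7 of the 10 members. Shown here are those that changed in some comparison and whose upstream bases lie mostly outside exons of the same gene. Each is the 250 bases before the first transcribed base on the gene's strand, cut where an exon of that gene begins. The first transcribed base is chr20:31605289 for ID1 and chr3:46574535 for the TDGF1 start shown, so these stretches stop short of it. An exon of another annotated gene, ENSG00000289875, overlaps the ID1 window. Capitals mark matches to 4 motifs, namely the SMAD box CAGAC, its GC-rich form GGCGCC and the FOXH1 motif AATNCACA on both strands, and TATAAA on the gene's strand.
GDF3, chr12:7695776-7696025, minus strand: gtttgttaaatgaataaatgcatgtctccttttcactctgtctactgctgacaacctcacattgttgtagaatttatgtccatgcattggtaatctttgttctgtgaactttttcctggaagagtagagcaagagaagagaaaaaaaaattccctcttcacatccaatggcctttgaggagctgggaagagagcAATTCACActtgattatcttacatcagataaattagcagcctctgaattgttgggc
ID1, chr20:31605039-31605282, plus strand: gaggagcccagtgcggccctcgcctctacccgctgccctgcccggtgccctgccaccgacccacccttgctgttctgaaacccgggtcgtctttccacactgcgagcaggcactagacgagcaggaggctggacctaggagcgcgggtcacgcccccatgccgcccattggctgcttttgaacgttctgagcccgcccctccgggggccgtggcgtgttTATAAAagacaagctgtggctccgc
ID3, chr1:23559502-23559751, minus strand: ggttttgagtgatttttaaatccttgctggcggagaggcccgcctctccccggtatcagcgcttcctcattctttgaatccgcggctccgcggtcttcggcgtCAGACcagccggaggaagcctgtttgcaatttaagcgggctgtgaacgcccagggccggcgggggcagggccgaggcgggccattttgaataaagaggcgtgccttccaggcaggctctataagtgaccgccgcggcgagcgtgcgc
TDGF1, chr3:46574285-46574533, plus strand: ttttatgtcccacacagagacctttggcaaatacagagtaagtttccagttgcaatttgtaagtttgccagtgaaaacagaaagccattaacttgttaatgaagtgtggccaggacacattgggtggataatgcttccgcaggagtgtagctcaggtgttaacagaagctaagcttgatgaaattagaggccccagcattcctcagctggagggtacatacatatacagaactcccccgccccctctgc
The GDF3 window held a FOXH1 motif 56 bases before the start, the ID1 window a TATAAA match 31 bases before it and the ID3 window a CAGAC 147 bases before it. No match was found in the TDGF1 window. A second listed TDGF1 start lies at chr3:46577788, and its window, not shown, held no match either. Of 35116 RefSeq promoters of the same 250 bases, 38.0% held CAGAC, 16.4% GGCGCC, 2.89% AATNCACA and 6.80% TATAAA, so a CAGAC match is common by itself. These matches describe letters and not binding.

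Depth was 26842718 to 49521740 reads per library in NT2/D1-A4, 30250275 to 53645086 in 2102EP-C1 and 79382033 to 100872653 in the knockdown experiment. Markers of the labelled cell type were present, with all 14 embryonal carcinoma and pluripotency markers, among them POU5F1, SOX2 and NANOG, measured in every table. Their summed level was 9688 to 9866 CPM in NT2/D1-A4 VC libraries against 7837 to 8068 with GSK-J4, and 11819 to 12155 CPM in 2102EP-C1 VC libraries against 10334 to 10628 with GSK-J4. In the knockdown experiment the sum was 11161 to 11222 CPM with pLKO1 and 10450 to 10626 CPM with sh6A+6B. The sum of the 3 measured of 7 yolk sac and endoderm markers rose with GSK-J4 in both lines. In NT2/D1-A4 it was 2.38 to 3.06 CPM with vehicle and 5.47 to 6.09 CPM with GSK-J4. In 2102EP-C1 it was 2.39 to 3.53 CPM with vehicle and 4.28 to 5.65 CPM with GSK-J4. In these arms 1 or 2 of the 3 stayed under 1 CPM, and APOA1, GATA6, FOXA2 and TTR were not listed. Of 6 trophoblast markers, only HAND1 was measured in NT2/D1-A4, and HAND1 and KRT7 in 2102EP-C1. CGA, CGB3, CDX2 and GCM1 were not listed in either. HAND1 rose with GSK-J4 in NT2/D1-A4 (3.37 to 4.16 CPM to 5.03 to 6.09 CPM, and 7.54 to 8.17 CPM in Combination). The sum of HAND1 and KRT7 rose in 2102EP-C1 (4.61 to 5.11 CPM to 7.93 to 8.27 CPM, and 8.68 to 12.6 CPM in Combination). HAND1 is also counted among the BMP target genes below, so this is not a separate observation. With sh6A+6B, 3 mesoderm markers summed to 88.7 to 92.5 CPM against 71.1 to 72.9 CPM with pLKO1, with 1 of them past the limits, and 3 neural markers to 445 to 466 CPM against 522 to 528 CPM, with none past them. The mesoderm sum went the other way in 2102EP-C1, from 51.6 to 55.5 CPM with vehicle to 46.3 to 48.6 CPM with GSK-J4. It was 36.6 to 44.5 CPM in Combination there, and in NT2/D1-A4 the vehicle and GSK-J4 libraries overlapped. The yolk sac and endoderm sums of pLKO1 and sh6A+6B libraries also overlapped. Over all libraries, seminoma and primordial germ cell markers summed to 235 to 306 CPM and testis somatic and spermatogenic markers to 2.28 to 4.84 CPM. Between replicates, the chi-square of the reads per gene, which is near 1 for counting noise alone, was 6.67 to 22.5 in the NT2/D1-A4 Combination arm. It was 6.90 and 8.93 for 2102EP-C1 GSK-J4 library 3 against the others of its arm, which differed by 1.76, and 6.52 and 8.08 for 2102EP-C1 Combination library 1, where the others differed by 3.09. The part of the marker shifts in the results that follow was not tested. In bulk libraries, fewer cells with a transcript and less RNA per cell cannot be told apart.

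The targeted genes were checked first. KDM6A read 143, 144 and 142 CPM with pLKO1 and 70.7, 68.1 and 73.6 CPM with sh6A+6B. KDM6B read 24.4, 25.2 and 24.7 CPM with pLKO1 and 11.4, 12.1 and 13.4 CPM with sh6A+6B. Both fell by 1.01 on the log2 scale (adjusted p = 2.1e-18 for KDM6A and 1.8e-14 for KDM6B, limma with Benjamini-Hochberg adjustment), so the knockdown was partial. GSK-J4 acts on the proteins, and KDM6B transcript rose with it by 0.88 in NT2/D1-A4 (adjusted p = 1.2e-09) and by 0.81 in 2102EP-C1 (adjusted p = 2.3e-10) on the log2 scale.

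In the untreated state, 2102EP-C1 held far more transcript of TDGF1, NODAL and both LEFTY genes than NT2/D1-A4. Because the tables were normalized separately, these levels are set side by side without a test. The mean of 3 VC libraries was 972 ± 17.2 CPM in 2102EP-C1 against 11.5 ± 0.577 CPM in NT2/D1-A4 for TDGF1 (± SD, n = 3 here and below), a ratio of 84.4. NODAL stood at 123 ± 1.99 against 2.74 ± 0.108 CPM, a ratio of 45.0. For the inhibitors, LEFTY2 had 23.5 ± 3.52 against 0.752 ± 0.0476 CPM and LEFTY1 had 32.8 ± 3.12 against 2.54 ± 0.220 CPM, ratios of 31.3 and 12.9. GDF3 was high in both lines, with 794 ± 9.53 against 201 ± 12.4 CPM, a ratio of 3.96. FOXH1 had 32.2 ± 1.34 against 14.7 ± 1.19 CPM, a ratio of 2.19. The ID genes and SMAD7 were closer between the lines. ID1 and ID3 were 1.15 and 1.47 times as high in 2102EP-C1 as in NT2/D1-A4, SMAD7 1.48 times, and ID2 was 1.41 times as high in NT2/D1-A4.

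**Figure D1:**
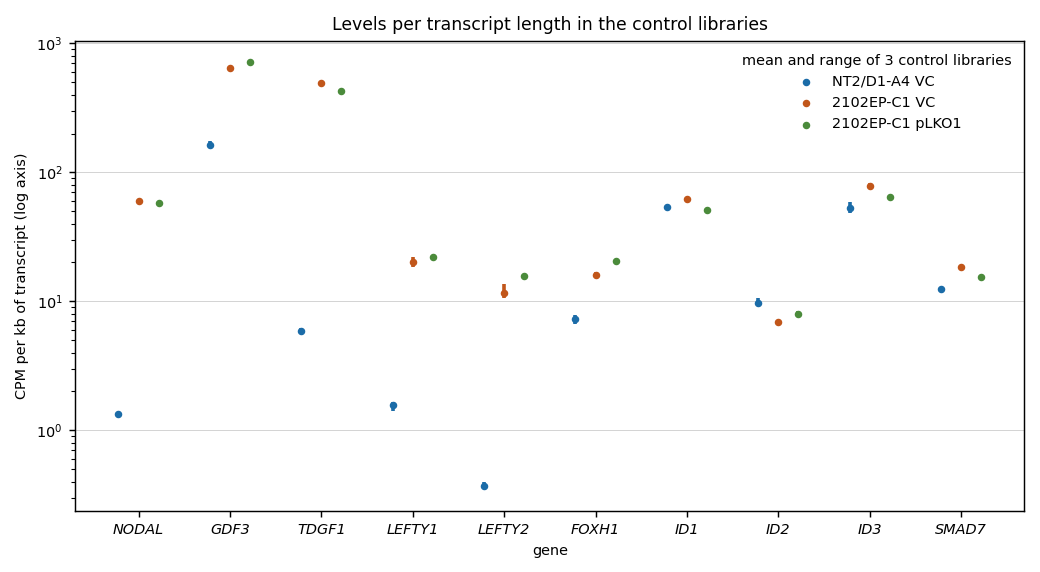
CPM per kilobase of representative transcript (log axis) for the 10 genes in the control libraries of the 3 experiments, where points are means and bars the range of 3 libraries. TDGF1 runs from 5.89 in NT2/D1-A4 to 497 in 2102EP-C1, whereas ID1 runs from 51.4 to 62.2 over the 3 control groups.

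Per kilobase of transcript, which allows for differences in length, GDF3 was the most abundant member in each control group, at 162 ± 10.05, 642 ± 7.71 and 713 ± 2.75 CPM per kb in NT2/D1-A4 VC, 2102EP-C1 VC and 2102EP-C1 pLKO1. TDGF1 came second in both 2102EP-C1 control groups, with 497 ± 8.78 and 425 ± 5.76 CPM per kb, but seventh in NT2/D1-A4 with 5.89 ± 0.295. How reads of shared stretches were counted was not given. TDGF1 shared 38.6% of its stretches with other genes, LEFTY1 54.7%, LEFTY2 29.6% and GDF3 0%. The places of these genes in the order are therefore uncertain, including GDF3 above TDGF1 in 2102EP-C1. The lowest NT2/D1-A4 member was LEFTY2 at 0.372 ± 0.0236 CPM per kb, below NODAL at 1.33 ± 0.0522. ID2 was lowest in both 2102EP-C1 control groups, at 6.92 ± 0.342 and 8.01 ± 0.371 CPM per kb. Neighbors in this order whose libraries overlapped were ID1 and ID3 in NT2/D1-A4, LEFTY1 and SMAD7 in 2102EP-C1, and LEFTY2 and SMAD7 in pLKO1 cells.

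A gene is said to have changed where its fold change exceeded 1.3 and its Benjamini-Hochberg adjusted p over all genes of the table was under 0.05 in limma, fitted to all 12 libraries of an experiment. Fold changes and differences are on the log2 scale of the deposited values and are given ± SE. The 3 treated arms of an experiment share their control libraries, so their differences from control are not independent of each other.

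In NT2/D1-A4, GSK-J4 alone raised 5 of the 10 members and lowered none. Of all 16431 genes, 20.3% changed, 13.8% upward and 6.48% downward. The 5 were the ID2 and ID3 genes, the NODAL co-receptor gene TDGF1 and both LEFTY genes. The ligands were not among them.

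ID2 read 12.6, 11.8 and 13.7 CPM with vehicle and 24.1, 24.1 and 24.5 CPM with GSK-J4. Every GSK-J4 library lay well above every control library, and the rise was 0.93 ± 0.075 (1.91-fold, adjusted p = 8.2e-09). TDGF1 had 11.3, 11.04 and 12.2 CPM with vehicle and 20.3, 19.3 and 18.6 CPM with GSK-J4, again with no overlap, a rise of 0.75 ± 0.066 (1.68-fold, adjusted p = 3.1e-08). TDGF1 still lay far below its level in 2102EP-C1.

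LEFTY1 went from 2.64, 2.28 and 2.69 CPM to 4.24, 4.57 and 4.34 CPM, and LEFTY2 from 0.750, 0.800 and 0.705 CPM to 1.68, 1.34 and 1.44 CPM. For both genes the groups were fully separated. LEFTY1 rose by 0.77 ± 0.12 (adjusted p = 2e-05) and LEFTY2 by 0.91 ± 0.17 (adjusted p = 0.00025). LEFTY2 counts were low, 21 to 68 reads per NT2/D1-A4 library, so the fold of this gene is the least precise among the members. The ratio of LEFTY1 to LEFTY2 reads was 2.53 to 4.08 over the 12 libraries.

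ID3 read 45.9, 49.2 and 55.7 CPM in the control libraries and 65.0, 67.6 and 67.4 CPM with GSK-J4. The rise of 0.41 ± 0.058 (1.33-fold, adjusted p = 1.1e-05) was close to the fold limit, and was 0.35 (adjusted p = 0.00013) without VC library 1, under that limit. ID1 was just on the other side of it, with 53.8, 52.3 and 53.2 CPM against 67.5, 69.0 and 68.5 CPM. Its groups were as clearly separated as those of ID3, and the difference was 0.36 ± 0.041 (1.29-fold, adjusted p = 6.9e-07). Scaled to library size only, ID1 passed at 0.41 (adjusted p = 1.9e-07).

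The remaining members did not change with GSK-J4 in this line. SMAD7, the shared inhibitor, had 42.2, 40.6 and 41.2 CPM with vehicle and 31.7, 34.2 and 35.7 CPM with GSK-J4, a difference of -0.29 ± 0.059 that passed the adjusted p (0.00052) and not the fold limit. NODAL itself read 2.64, 2.73 and 2.85 CPM against 2.34, 2.40 and 2.43 CPM, a difference of -0.19 with a 95% interval from -0.41 to 0.03. GDF3 differed by -0.04 (-0.13 to 0.04) and FOXH1 by -0.02 (-0.19 to 0.15).

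Cisplatin alone changed 1 member in NT2/D1-A4, where 2.45% of all genes changed. ID3 rose from 45.9, 49.2 and 55.7 CPM to 66.9, 76.1 and 70.0 CPM. All cisplatin libraries exceeded all controls, and the rise was 0.50 ± 0.058 (1.41-fold, adjusted p = 2.6e-05). ID1 was higher by 0.17 (adjusted p = 0.013) and SMAD7 lower by 0.20 (log2 difference -0.20, adjusted p = 0.039), both inside the fold limit. LEFTY1 and LEFTY2 had intervals from -0.13 to 0.35 and from -0.35 to 0.37.

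With GSK-J4 and cisplatin together, 6 of the 10 members were above control, where 15.9% of all genes rose and 25.4% changed in either direction. ID2 reached 24.1, 28.6 and 28.3 CPM, a rise of 1.08 ± 0.075 (adjusted p = 7.9e-10), and ID3 reached 75.1, 77.7 and 78.8 CPM, a rise of 0.62 ± 0.058 (adjusted p = 4.5e-08). LEFTY2 rose by 1.05, LEFTY1 by 0.89, TDGF1 by 0.71 and ID1 by 0.41, each with an adjusted p of 4.8e-05 or less. The 5 members that rose with GSK-J4 alone were thus among the 6 that stood above control after both drugs. SMAD7 was lower by -0.35 (adjusted p = 7e-05), within the fold limit, and without Combination library 1 it passed at -0.39.

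When NT2/D1-A4 cells already given GSK-J4 received cisplatin, no member changed by limma, where 0.377% of all genes did. There were 2 members with an unadjusted p under 0.05, as against 14.6% of all genes (ID3 at 0.21, adjusted p = 0.085, and NODAL at 0.26, adjusted p = 0.25), and limma's voom, run on the recovered reads, also gave 0. The interaction, which asks whether cisplatin acted differently with GSK-J4 than without, was passed by no member against 0.0426% of all genes, with 2 members at an unadjusted p under 0.05 (7.15% of all genes) and 0 by voom. ID3 had the largest of these differences, -0.29 ± 0.082 (unadjusted p = 0.0024, adjusted p = 0.42).

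**Figure D2:**
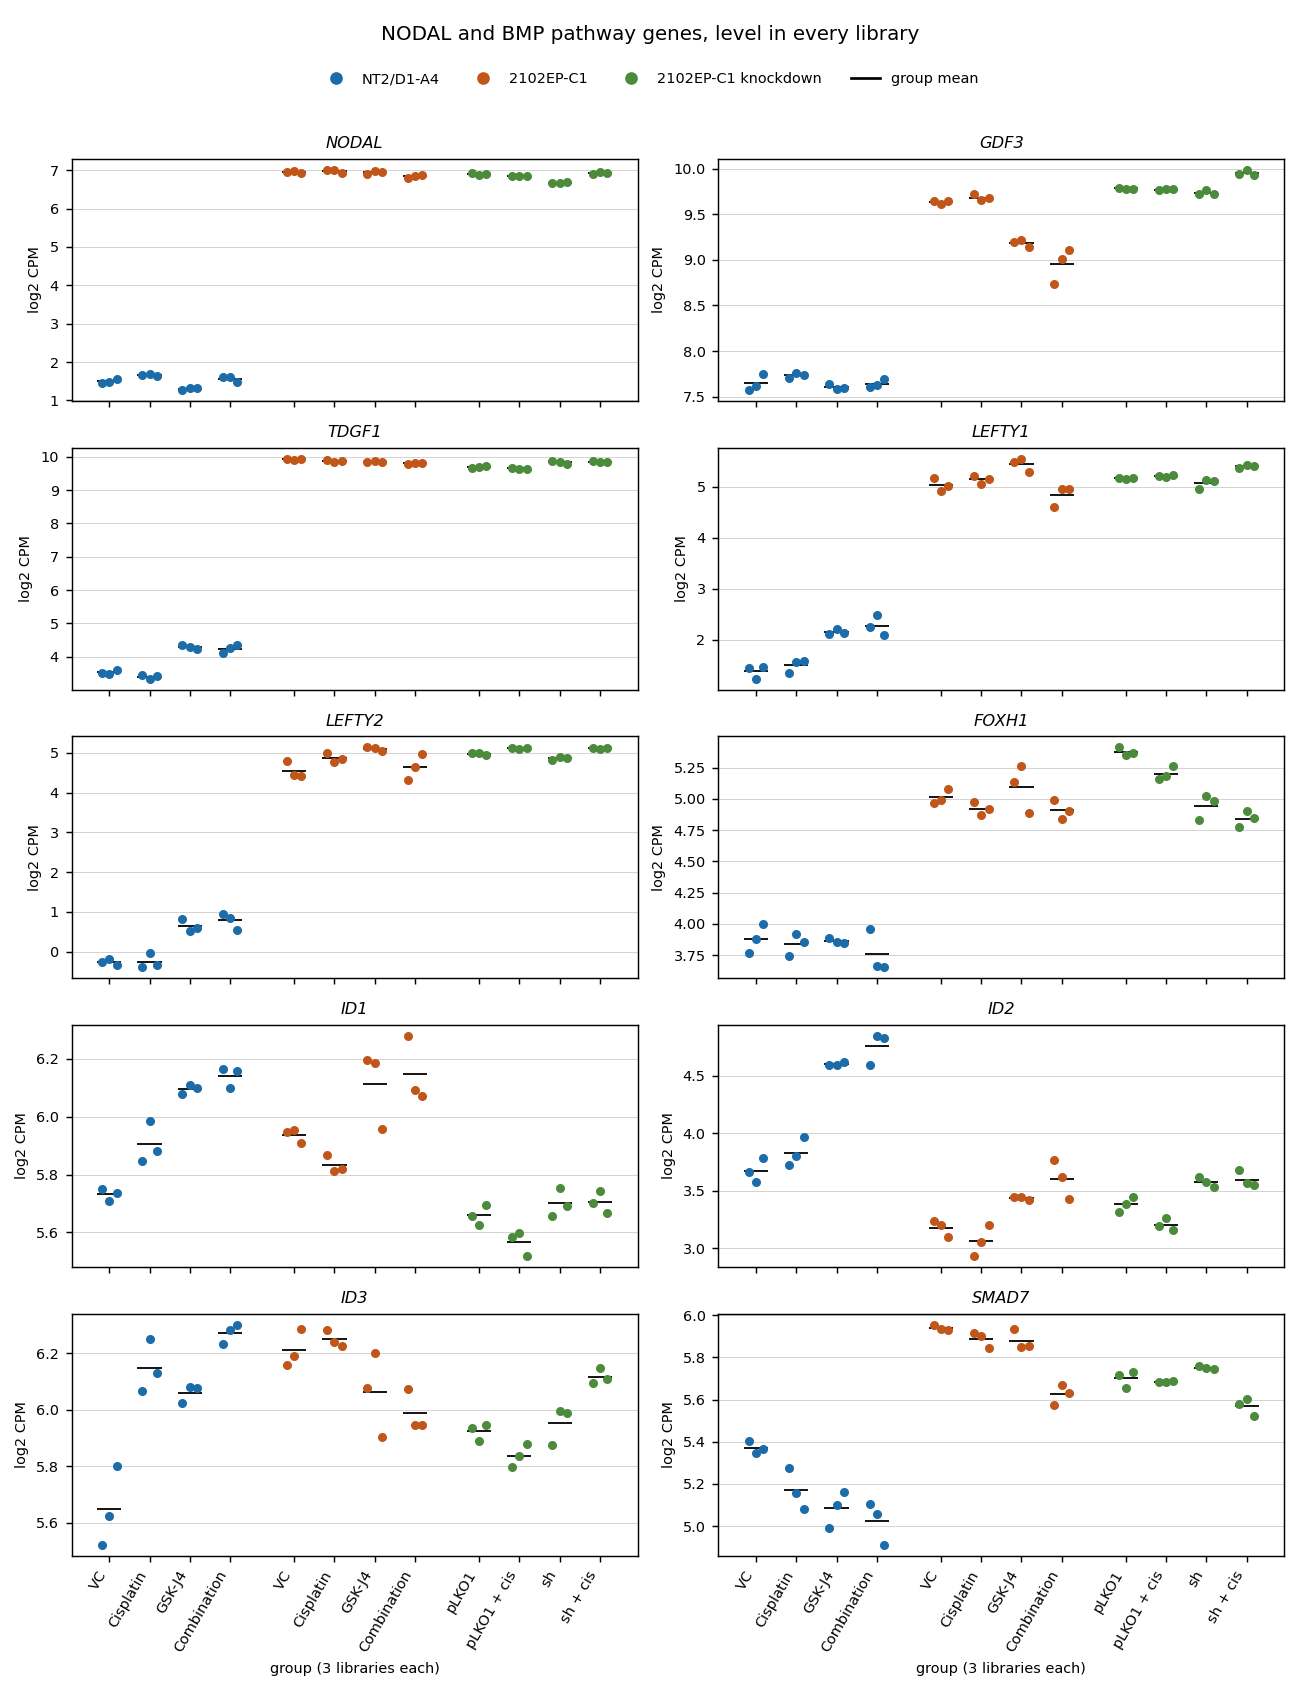
Log2 CPM of each of the 10 genes in all 36 libraries, with 1 point per library, a bar at the group mean and colors for the 3 experiments. The vertical axes differ between genes. LEFTY1, LEFTY2, TDGF1 and ID2 are higher in the GSK-J4 and Combination libraries of NT2/D1-A4 than in its controls, and GDF3 is lower in those of 2102EP-C1.

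In 2102EP-C1, GSK-J4 alone changed 3 members, with both LEFTY genes up and GDF3 down, where 10.9% of all 17035 genes changed, 7.79% upward and 3.12% downward. The LEFTY genes were the members that rose with GSK-J4 in each line.

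LEFTY1 read 36.1, 29.96 and 32.2 CPM with vehicle and 44.8, 46.7 and 39.2 CPM with GSK-J4. LEFTY2 read 27.6, 21.5 and 21.4 CPM with vehicle and 35.1, 34.9 and 33.0 CPM with GSK-J4. Neither gene's groups overlapped, although the spread within a group was wider than for most members. LEFTY2 rose by 0.55 ± 0.10 (1.47-fold, adjusted p = 0.00012) and LEFTY1 by 0.41 ± 0.077 (1.33-fold, adjusted p = 0.00014). The LEFTY1 call rested on single libraries, with 0.35 (adjusted p = 0.0029) without VC library 2 and 0.36 (adjusted p = 0.0016) without GSK-J4 library 2, both under the fold limit.

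GDF3, the most abundant of the ligands, read 799, 783 and 799 CPM with vehicle and 585, 593 and 564 CPM with GSK-J4. It fell by 0.45 ± 0.051 on the log2 scale (to 0.731-fold, adjusted p = 1.3e-07), with each group tight and apart. For the other ligand no change was seen, as NODAL stood at 123, 125 and 121 CPM against 120, 126 and 124 CPM, a difference of 0.00 with a 95% interval from -0.07 to 0.07. Likewise, TDGF1 had 987, 953 and 976 CPM against 917, 932 and 930 CPM, a difference of -0.07 (-0.13 to -0.01, adjusted p = 0.052).

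Among the BMP target genes, ID2 differed by 0.26 (adjusted p = 0.017), ID1 by 0.18 (adjusted p = 0.012) and ID3 by -0.15 (adjusted p = 0.029), all inside the fold limit. GSK-J4 library 3, which stood apart over all genes, was lowest of its arm for both LEFTY genes and GDF3, for ID1, at 62.0 CPM against 73.2 and 72.6, for ID3, at 59.8 CPM against 67.5 and 73.5, and for FOXH1, at 29.5 CPM against 35.1 and 38.4. Without it, LEFTY1, LEFTY2 and GDF3 still passed, at 0.48, 0.58 and -0.43, ID3 differed by -0.07 (adjusted p = 0.23) and FOXH1 by 0.19 (adjusted p = 0.007).

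Cisplatin alone changed no member of 2102EP-C1 by limma, where 1.07% of all genes changed. There was 1 member with an unadjusted p under 0.05, as against 16.7% of all genes, and voom gave 0. That member was LEFTY2, with 31.9, 27.4 and 28.6 CPM and a difference of 0.32 (0.11 to 0.53, adjusted p = 0.076). Without VC library 1, the highest of the controls, it was 0.44 (adjusted p = 0.022) and passed. ID3 differed by 0.04 (-0.07 to 0.15).

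When 2102EP-C1 cells received cisplatin after GSK-J4, the LEFTY genes came back down. The question here is whether the second drug altered what the first had done. Against GSK-J4 alone, 2 members fell and none rose, where 2.22% of all genes changed and 1.31% fell.

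LEFTY1 read 44.8, 46.7 and 39.2 CPM with GSK-J4 alone and 24.1, 30.9 and 30.8 CPM in the Combination arm, a fall by 0.61 ± 0.077 on the log2 scale (to 0.655-fold, adjusted p = 9e-06). LEFTY2 read 35.1, 34.9 and 33.0 CPM with GSK-J4 alone and 19.8, 24.8 and 31.3 CPM in the Combination arm, a fall by 0.46 ± 0.10 (to 0.725-fold, adjusted p = 0.0028). All Combination libraries lay below all GSK-J4 libraries for both genes. Combination library 1 was the lowest for each, and without it the difference was -0.49 (adjusted p = 3.1e-05) for LEFTY1 and -0.30 (adjusted p = 0.029) for LEFTY2, the latter inside the fold limit.

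The interaction between GSK-J4 and cisplatin was passed by the same 2 members, where 0.857% of all genes passed. It was -0.72 ± 0.11 for LEFTY1 (adjusted p = 0.00051) and -0.79 ± 0.14 for LEFTY2 (adjusted p = 0.004). Cisplatin alone had moved neither gene past the limits, at 0.11 and 0.32, whereas after GSK-J4 its effect was -0.61 and -0.46. Without Combination library 1, the interaction was -0.60 (adjusted p = 0.00032) for LEFTY1 and -0.62 (adjusted p = 0.0038) for LEFTY2, and both still passed. In NT2/D1-A4 the same interaction was 0.01 (-0.33 to 0.35) for LEFTY1 and 0.13 (-0.38 to 0.64) for LEFTY2, and the difference between the lines in this interaction was not tested.

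As a net result, neither LEFTY gene in the Combination arm of 2102EP-C1 stood past the limits against control, with LEFTY1 at -0.20 (adjusted p = 0.031) and LEFTY2 at 0.09 (-0.12 to 0.30). Against control, 2 members changed in this arm, where 22.6% of all genes did. GDF3 read 428, 517 and 550 CPM, a fall against control with a difference of -0.68 ± 0.051 (0.624-fold, adjusted p = 2.4e-11), which was -0.57 (adjusted p = 2.9e-14) without Combination library 1. Against GSK-J4 alone GDF3 differed by -0.23 (adjusted p = 0.0034), inside the fold limit, and by -0.12 (adjusted p = 0.019) without that library. ID2 reached 13.5, 12.2 and 10.7 CPM from 9.34, 9.13 and 8.48 CPM, a rise of 0.42 ± 0.083 (adjusted p = 0.00011), and without that library it was 0.34 (adjusted p = 0.0019) and under the limit.

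SMAD7 in this arm had 47.6, 50.8 and 49.5 CPM against 61.9, 61.0 and 60.8 CPM in the controls. The groups did not overlap, and the difference of -0.31 ± 0.039 (0.805-fold, adjusted p = 2.2e-07) was inside the fold limit. ID3 was lower as well, by -0.22 (adjusted p = 0.00088), and ID1 higher, by 0.21 (adjusted p = 0.0016). NODAL had 111, 116 and 117 CPM, a difference of -0.11 (adjusted p = 0.01).

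**Figure D3:**
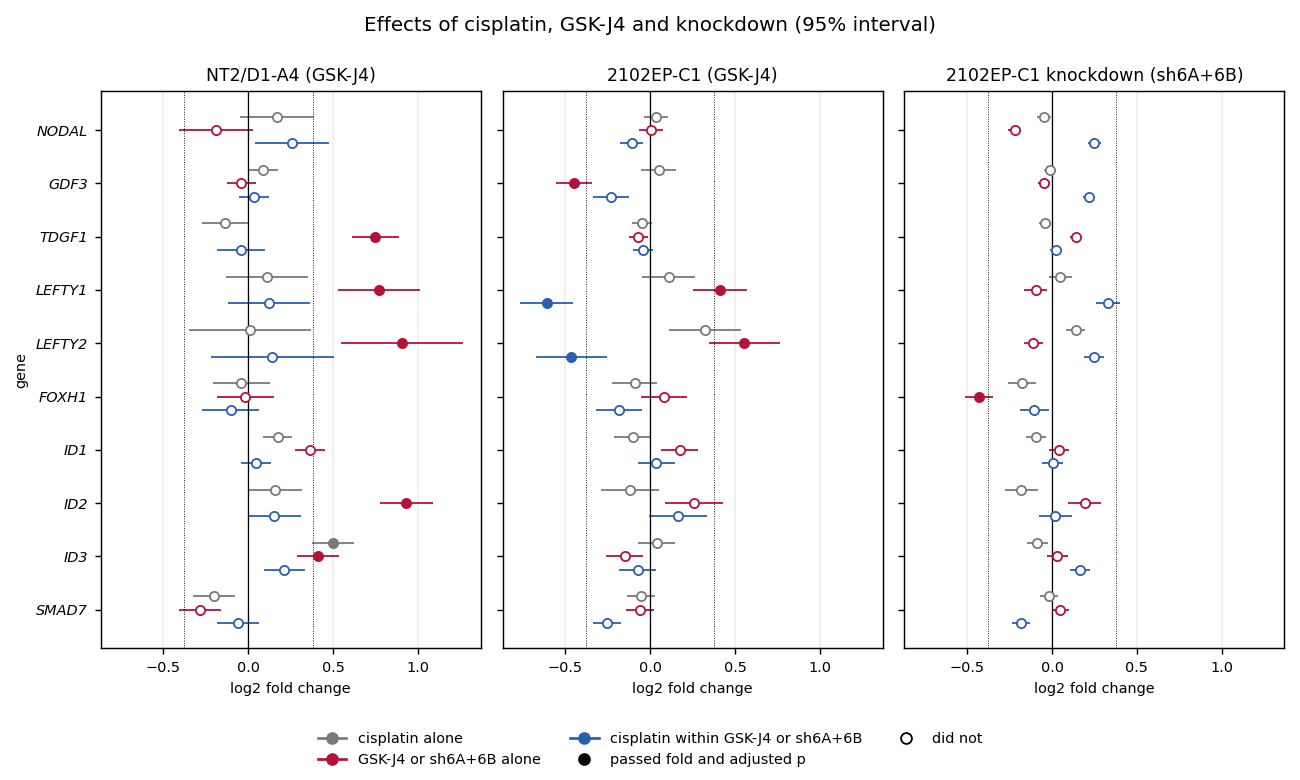
Log2 fold change with its 95% interval for cisplatin alone (grey), GSK-J4 or sh6A+6B alone (red) and cisplatin within GSK-J4 or sh6A+6B (blue) for each of the 10 genes. Filled points passed fold 1.3, marked by dotted lines, and adjusted p 0.05. LEFTY1 in 2102EP-C1 lies at 0.41 with GSK-J4 and at -0.61 for cisplatin within GSK-J4, while most knockdown effects are small with narrow intervals.

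The sh6A+6B cells differed from pLKO1 cells in 1 member past both limits, where 12.1% of all 16459 genes changed. FOXH1, the DNA-binding partner of SMAD2 and SMAD3, read 42.5, 40.8 and 41.2 CPM with pLKO1 and 28.4, 32.5 and 31.5 CPM with sh6A+6B. The groups were far apart, and FOXH1 fell by 0.43 ± 0.041 on the log2 scale (to 0.742-fold, adjusted p = 3.9e-09). Without sh6A+6B library 1 the difference was -0.37 (adjusted p = 9.2e-10), just under the fold limit. KIFC2, the gene overlapping it, had 0.890, 0.884 and 0.885 CPM against 1.102, 0.938 and 0.911 CPM, a difference of 0.14 (adjusted p = 0.37).

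Counting adjusted p alone, 7 of the 10 members differed between sh6A+6B and pLKO1, 2 up and 5 down, where 25.6% of all genes were higher and 27.2% lower by the same measure. NODAL read 121, 118 and 119 CPM with pLKO1 and 101, 102 and 104 CPM with sh6A+6B, without overlap, a difference of -0.22 ± 0.020 (0.858-fold, adjusted p = 1.5e-09). TDGF1 went the other way, from 820, 830 and 842 CPM to 931, 920 and 892 CPM, a difference of 0.14 ± 0.017 (adjusted p = 3e-07). ID2 differed by 0.19 (adjusted p = 0.0013), LEFTY2 by -0.11 (adjusted p = 0.0018), LEFTY1 by -0.10 (adjusted p = 0.018) and GDF3 by -0.05 (adjusted p = 0.02). These are values inside the fold limit.

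Cisplatin in pLKO1 cells changed no member by limma, where 3.0% of all genes changed. There were 7 members with an unadjusted p under 0.05, where 44.4% of all genes had one, and voom gave 0. FOXH1 had 35.6, 36.2 and 38.3 CPM, a difference of -0.18 (adjusted p = 0.0013), and LEFTY2 differed by 0.14 (adjusted p = 0.00032). ID1, ID2 and ID3 were all lower, by -0.09, -0.18 and -0.09 (adjusted p of 0.015, 0.004 and 0.024), where ID3 had risen with cisplatin in NT2/D1-A4.

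In knockdown cells, cisplatin changed no member past the fold limit either, where 3.52% of all genes changed, with 7 members at an unadjusted p under 0.05 (51% of all genes) and 0 by voom. Within that limit, NODAL, GDF3 and both LEFTY genes were higher, FOXH1 was lower at -0.10 (adjusted p = 0.04) and TDGF1 differed by 0.03 (-0.01 to 0.06). LEFTY1 went from 31.1, 34.8 and 34.6 CPM to 41.2, 42.9 and 42.2 CPM, a difference of 0.33 ± 0.033 (1.26-fold, adjusted p = 2.3e-08). NODAL went from 101, 102 and 104 CPM to 120, 124 and 121 CPM, a difference of 0.25 ± 0.020 (adjusted p = 3.5e-10), which put it within 0.03 of pLKO1 on the log2 scale. GDF3 read 846, 872 and 843 CPM without and 986, 1013 and 974 CPM with cisplatin, a difference of 0.22 ± 0.016 (adjusted p = 2e-10). LEFTY2 differed by 0.25 (adjusted p = 1e-07), ID3 by 0.16 (adjusted p = 6.4e-05) and SMAD7 by -0.18 (adjusted p = 2.2e-06).

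The knockdown by cisplatin interaction was passed by no member under both limits, where 3.77% of all genes passed, with 9 members at an unadjusted p under 0.05 (43.1% of all genes) and 0 by voom. It was 0.30 ± 0.028 for NODAL (adjusted p = 8.1e-09), 0.28 ± 0.047 for LEFTY1 (adjusted p = 4.1e-05), 0.25 ± 0.041 for ID3 (adjusted p = 3.4e-05) and 0.23 ± 0.023 for GDF3 (adjusted p = 3e-08). For LEFTY1 the sign was opposite to that of the GSK-J4 by cisplatin interaction in the same line, and the difference between these interactions was not tested.

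Against pLKO1, the sh6A+6B cells given cisplatin differed past both limits in FOXH1 alone among the members, where 16% of all genes changed. It read 27.4, 29.9 and 28.7 CPM, a fall by 0.54 ± 0.041 on the log2 scale (to 0.690-fold, adjusted p = 4.6e-11). LEFTY1 differed by 0.23, ID2 by 0.21, ID3 by 0.19, GDF3 by 0.17 and TDGF1 by 0.16, each inside the fold limit with an adjusted p of 0.00038 or less.

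The effects of the 2 lines and of the 2 ways of targeting the demethylases were compared as differences between effects, each formed within its own experiment on reads scaled together. For GSK-J4, 4 members differed between the lines, where 10.5% of the 15663 genes measured in both did. In each the effect was the more positive in NT2/D1-A4, as it was for 6.54% of genes.

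The largest difference was that of TDGF1, 0.82 ± 0.061 (adjusted p = 1.8e-11), which rose in NT2/D1-A4 from a low level and read 917 to 932 CPM with GSK-J4 in 2102EP-C1. ID2 differed by 0.67 ± 0.12 (adjusted p = 5.4e-05) and ID3 by 0.56 ± 0.085 (adjusted p = 1.1e-05). GDF3 differed by 0.41 ± 0.074 (adjusted p = 0.00012), and by 0.37 (adjusted p = 0.00083), under the fold limit, without NT2/D1-A4 VC library 1. For the LEFTY genes no difference was shown, with intervals from 0.08 to 0.64 for LEFTY1 (adjusted p = 0.051) and -0.02 to 0.73 for LEFTY2 (adjusted p = 0.16). LEFTY1 passed at 0.40 without NT2/D1-A4 VC library 3, 0.42 without 2102EP-C1 VC library 2 and 0.41 without 2102EP-C1 GSK-J4 library 2. FOXH1 had an interval from -0.33 to 0.12 and ID1 one from 0.04 to 0.34 (adjusted p = 0.054).

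For cisplatin alone, 1 member differed between the lines, where 0.121% of genes did. ID3 had a difference of 0.46 ± 0.085 (adjusted p = 0.0084), with 1.41-fold in NT2/D1-A4 against 1.03-fold in 2102EP-C1. This call rested on single libraries, since the difference was 0.41 (adjusted p = 0.057) without NT2/D1-A4 Cisplatin library 2 and 0.43 (adjusted p = 0.056) without 2102EP-C1 VC library 3. ID1 and ID2 both had a difference of 0.28 (adjusted p of 0.12 and 0.43).

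Within 2102EP-C1, the effect of GSK-J4 differed from that of sh6A+6B for 4 members, where 15.6% of 16104 genes differed. LEFTY2 had a difference of 0.64 ± 0.13 (adjusted p = 0.00014) and LEFTY1 one of 0.49 ± 0.097 (adjusted p = 0.00015), since both rose with the inhibitor and were slightly lower with the knockdown. FOXH1 differed by 0.49 ± 0.085 (adjusted p = 2.4e-05), with 0.08 for GSK-J4 and -0.43 for sh6A+6B in their own experiments. GDF3 differed by -0.43 ± 0.064 (adjusted p = 2.7e-06), with -0.45 and -0.05. For ID2 the interval of the difference ran from -0.16 to 0.24. The 2 treatments also differ in duration, vector and control libraries, and these cannot be told apart from inhibitor against knockdown.

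**Figure D4:**
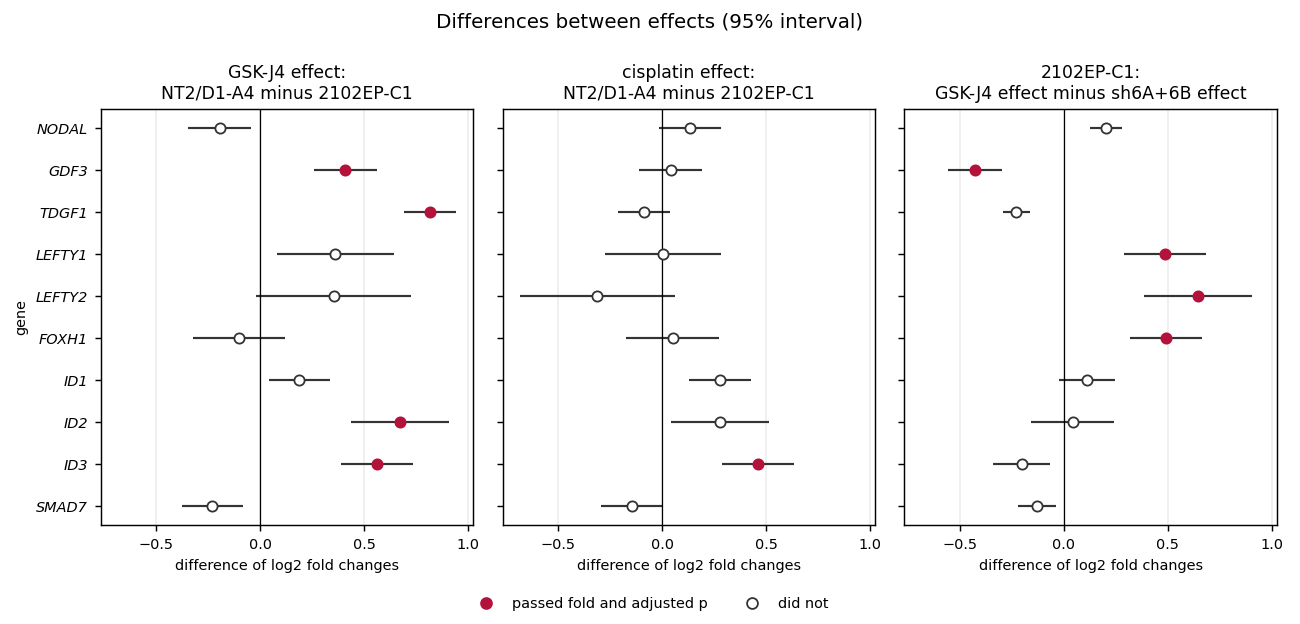
Differences between log2 fold changes with 95% intervals for the 10 genes, as NT2/D1-A4 minus 2102EP-C1 for GSK-J4 and for cisplatin, and as GSK-J4 minus sh6A+6B in 2102EP-C1. Filled points passed fold 1.3 and adjusted p 0.05. TDGF1 at 0.82 in the first panel and LEFTY2 at 0.64 in the third are the largest of their panels.

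The wider pathways were counted in 8 lists of 102 genes outside the members. With GSK-J4 in NT2/D1-A4, 30 of the 79 measured rose and 2 fell, which is 40.5% against 20.3% of all genes, with a median log2 fold change of 0.20. In 2102EP-C1, 18 of 83 rose and 3 fell with GSK-J4 (25.3% against 10.9% of all genes, median 0.11). With sh6A+6B, 13 of 79 rose and 4 fell (21.5% against 12.1%, median 0.07). Cisplatin alone raised 6 of 79 in NT2/D1-A4, 3 of 83 in 2102EP-C1 and 5 of 79 in pLKO1 cells, and lowered 0, 1 and 2, where 2.45%, 1.07% and 3.0% of all genes changed. The median over all genes was within 0.01 of 0 in each of these comparisons. The counts of single lists that follow stand beside shares over all genes of 13.8% up and 6.48% down with GSK-J4 in NT2/D1-A4, 7.79% and 3.12% in 2102EP-C1, and 6.34% and 5.74% with sh6A+6B. These lists are short and their counts were not tested against those shares. Some genes outside the members, such as CER1, stand in several lists, so the counts of single lists overlap.

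Several ligands and secreted inhibitors outside the members showed large changes. INHBE, an activin subunit gene, read 0.390, 0.400 and 0.235 CPM with vehicle and 6.10, 5.53 and 6.74 CPM with GSK-J4 in NT2/D1-A4, a rise of 3.89 on the log2 scale, and rose by 2.66 in 2102EP-C1. CER1, a secreted antagonist of NODAL and BMPs, rose by 1.62 and 1.56 with GSK-J4 in the 2 lines, from 0.210 and 4.45 CPM. It also rose with cisplatin alone, by 0.82 in 2102EP-C1 and 0.66 in pLKO1 cells. FST, which encodes the activin antagonist follistatin, rose by 1.92 in NT2/D1-A4 and by 0.54 with sh6A+6B. In this list of ligands, co-receptors and inhibitors, members included, 7 of 14 measured rose and none fell with GSK-J4 in NT2/D1-A4, 5 rose and 2 fell in 2102EP-C1, and 3 rose and none fell with sh6A+6B.

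Receptors, SMADs and nuclear partners of the NODAL branch had 3 of 18 up in NT2/D1-A4 and 1 of 18 up in 2102EP-C1 after GSK-J4, and none down. PMEPA1, an inhibitor of SMAD signaling that is itself a target of it, rose in both (0.38 and 0.43). With sh6A+6B, 2 of 18 fell and none rose, near the 12.1% of all genes that changed. They were FOXH1, described above, and SMAD2, from 108, 110 and 107 CPM to 81.7, 78.4 and 84.4 CPM, a fall by 0.41 on the log2 scale. SMAD3 and SMAD4 did not change in any of these comparisons.

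Target genes of NODAL and activin in early development, the LEFTY genes and NODAL included, counted 6 of 10 up with GSK-J4 in NT2/D1-A4, 4 of 10 up in 2102EP-C1 and 4 of 11 up with sh6A+6B, and none down. EOMES, a transcription factor of mesendoderm, read 3.97, 3.48 and 3.83 CPM with pLKO1 and 8.59, 8.23 and 8.22 CPM with sh6A+6B, a rise of 1.15. It rose by 0.80 with GSK-J4 and by 0.77 with cisplatin in NT2/D1-A4. HHEX rose by 1.93 with sh6A+6B, while both LEFTY genes were slightly lower there.

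BMP target genes, with ID1, ID2, ID3 and SMAD7 among them, counted 10 of 15 up and 1 down with GSK-J4 in NT2/D1-A4, 5 of 14 up and 1 down in 2102EP-C1, and 1 of 13 up with sh6A+6B. ID4, the fourth ID gene, read 31.2, 29.7 and 29.7 CPM with vehicle and 50.5, 50.9 and 52.5 CPM with GSK-J4 in NT2/D1-A4, a rise of 0.76, and rose by 0.77 in 2102EP-C1. MSX1 and MSX2, homeobox genes induced by BMPs, rose by 1.84 and 1.01 in NT2/D1-A4. GATA2 rose by 1.08 and HAND1 by 0.89 in 2102EP-C1, where SMAD6, the inhibitor specific to the BMP branch, fell by 0.43.

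For the BMP ligands, 1 of 8 measured rose with GSK-J4 in NT2/D1-A4 and 2 of 9 in 2102EP-C1, and with sh6A+6B 2 of 8 fell. BMP2 rose in both lines (0.76 and 0.63), and BMP4 rose by 0.59 in 2102EP-C1, from 12.1, 12.97 and 12.7 CPM to 20.8, 18.6 and 17.5 CPM. BMP8B and BMP6 were those that fell with sh6A+6B, by 0.92 and 0.64. BMP receptors and SMADs had 1 of 11 up and 1 down in NT2/D1-A4, 0 of 12 up and 1 down in 2102EP-C1, and 1 of 12 up and 1 down with sh6A+6B.

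The list of BMP antagonists and modulators, which also holds co-receptors and proteases such as RGMA and BMP1, had 7 of 12 up in NT2/D1-A4. It had 3 of 15 up in 2102EP-C1 and 2 of 13 up with sh6A+6B, and none down in any of these. GREM1, which binds and blocks BMPs, rose in all 3, by 0.83, 2.14 and 1.13, and by 0.68 with cisplatin alone in NT2/D1-A4. NOG rose by 1.03 in NT2/D1-A4. In the list of TGFB ligands, receptors and targets, 6 of 12 rose in NT2/D1-A4, 4 of 12 rose and 1 fell in 2102EP-C1, and 2 of 11 rose with sh6A+6B.

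**Figure D5:**
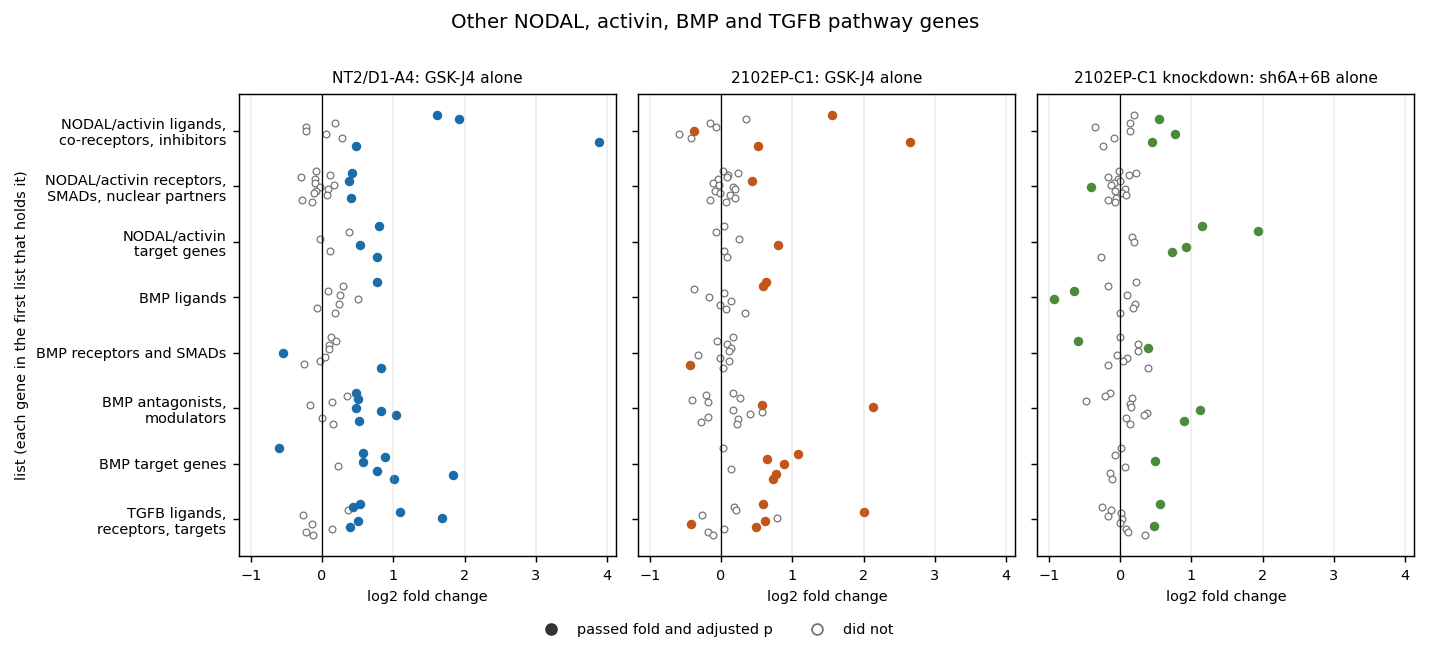
Log2 fold change of each pathway gene outside the 10 members, 1 point per gene in the first list that holds it, for GSK-J4 in NT2/D1-A4, GSK-J4 in 2102EP-C1 and sh6A+6B in 2102EP-C1. Filled points passed fold 1.3 and adjusted p 0.05. INHBE at 3.89 in NT2/D1-A4 and 2.66 in 2102EP-C1 lies farthest right.

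The genes whose pattern was most like that of 4 members were sought over all 36 libraries, with each table centered on its control mean, among 12765 genes. These correlations are descriptions, since libraries of an arm share a treatment and all arms of a table share a reference. LEFTY2 was most like LEFTY1 (Pearson r = 0.913), a gene with which it shares sequence, followed by NIPSNAP1 (0.888), PGLS (0.887) and A2ML1 (0.880). TDGF1 was most like ACAT2 (0.961), LRP8 (0.953) and FABP7 (0.951). ID1 was most like WNT5B (0.930), HMOX1 (0.929) and ZBTB7B (0.922), and ID2 was at rank 12 for it with 0.908. NODAL had no gene as close, its nearest being RPS6KA1 (0.793), CDH3 (0.754) and GDA (0.753), and its r with LEFTY1 was 0.110 and with LEFTY2 0.0193.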

How the data were processed

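RNA-seq was carried out on 36 libraries, 3 per arm. According to the study's methods, the libraries were stranded mRNA preparations. The authors used Trimmomatic for trimming, STAR with GRCh38.p14 for alignment and featureCounts for the counts, scaled by TMM, and left out genes that did not exceed 0.5 CPM in 2 or more samples. Tool versions and the strand setting of the count were not given in the sources used here. The deposited values are log2 CPM, and on the files they matched a prior count of 3, which pulls the fold changes of low genes such as LEFTY2 in NT2/D1-A4 toward 0. Gene rows carry NCBI gene numbers, which were matched to symbols, and 0 columns belonged to no listed sample.

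Reads per gene were recovered from the deposited log2 values. Of the recovered values under 50 reads, 100% lay within 0.05 of a whole number. CPM in the text come from these reads.

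Each table was fitted with limma 3.58.1 (R 4.3.3) as limma-trend on the deposited values over all genes and all 12 libraries, with a mean per arm, two-sided tests and Benjamini-Hochberg adjustment. Changed means a fold over 1.3 and an adjusted p under 0.05. Differences between experiments were fitted on recovered reads of 24 libraries scaled together by the median of ratios. The scripts were tested on simulated data. Where the labels do not say that replicates were separate cultures, p-values measure only the spread between these samples. Between replicates, counts differed by a chi-square of 1.62 to 22.5 per gene over 36 pairs, so none was a copy of another.

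The members are a given list of 10 genes. From each of 8 pathway lists, at most the 3 largest rises and falls were named in GSK-J4 alone, sh6A+6B alone and cisplatin alone, together with direct partners of members and, added for this report, KDM6A, KDM6B and KIFC2. Some genes that this rule named are not reported here. There were also 7 lists of cell type markers. Members, lists and tests were chosen with earlier results of these data known. Alternatives were voom, scaling to library size only, a prior count of 0.5, a minimum mean of 1 CPM, only the compared groups, the replicate number as a block, and leaving out each library. Counting error is part of the spread between libraries, and at 21 to 68 reads it is largest for LEFTY2 in NT2/D1-A4.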

Additional observations from a re-analysis of the deposited data

Results flagged for a closer look

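These are the effects on single members that differed between conditions, lines or ways of targeting the demethylases by a test of the difference itself, past both the fold limit and the adjusted p in limma.

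Within 2102EP-C1, the effect of cisplatin on the NODAL inhibitors depended on GSK-J4. The interaction was -0.72 for LEFTY1 (adjusted p = 0.00051) and -0.79 for LEFTY2 (adjusted p = 0.004), and the share of genes with such an interaction was 0.857%.

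Between NT2/D1-A4 and 2102EP-C1, the effect of GSK-J4 differed for the co-receptor gene TDGF1 by 0.82, for ID2 by 0.67, for ID3 by 0.56 and for GDF3 by 0.41, each more positive in NT2/D1-A4. The effect of cisplatin alone differed for ID3 by 0.46 (adjusted p = 0.0084). This ID3 call was lost without NT2/D1-A4 Cisplatin library 2 and without 2102EP-C1 VC library 3. The GDF3 call was lost without NT2/D1-A4 VC library 1.

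Within 2102EP-C1, the effect of GSK-J4 and that of sh6A+6B differed for LEFTY2 by 0.64, for LEFTY1 by 0.49, for FOXH1 by 0.49 and for GDF3 by -0.43. TDGF1 differed here by -0.23 and NODAL by 0.20, both inside the fold limit.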

How the results depend on the processing

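Of 32 calls on members over all comparisons, 25 were kept under every alternative tried, and those lost were lost when 1 library was left out, as given in the report. Leaving out 1 library at a time moved several counts of members. In NT2/D1-A4 the count was 4 to 5 for GSK-J4 alone and 6 to 7 for GSK-J4 with cisplatin against control. In 2102EP-C1 it was 0 to 1 for cisplatin alone and 2 to 3 for GSK-J4 alone. It was 1 to 2 there for GSK-J4 with cisplatin against control and for cisplatin within GSK-J4. For sh6A+6B alone it was 0 to 1. For the differences between the lines it was 3 to 5 for the GSK-J4 effect and 0 to 1 for the cisplatin effect. The other counts did not move. With the replicate number as a block the fits gave the same counts of members (5 for GSK-J4 in NT2/D1-A4, 3 in 2102EP-C1, 1 for sh6A+6B). Correlations of same-numbered libraries ran from -0.144 to 0.231, with 2 of 36 over 0.1. Both of these, 0.231 and 0.210, were between sh6A+6B libraries without and with cisplatin, where replicate 3 had 0.072. Whether the numbers pair the libraries of these arms was not settled. 

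Directions that turned all belonged to differences that were not called. With library size only, GSK-J4 in NT2/D1-A4 gave 0.0048 for GDF3 and 0.028 for FOXH1, the combination 0.043 for GDF3, and the interactions -0.0080 for LEFTY1 in NT2/D1-A4 and -0.0061 for TDGF1 in 2102EP-C1, and with voom the first of these interactions was -0.00034. Leaving out 1 library at a time turned the sign of others, whose ranges follow. In NT2/D1-A4, cisplatin alone ran from -0.099 to 0.080 for LEFTY2 and -0.10 to 0.016 for FOXH1, GSK-J4 from -0.078 to 0.0071 for GDF3 and -0.076 to 0.040 for FOXH1, the combination from -0.045 to 0.040 for GDF3, cisplatin within GSK-J4 from -0.092 to 0.019 for TDGF1, and the interaction from -0.090 to 0.097 for LEFTY1 and -0.061 to 0.074 for ID2. In 2102EP-C1, GSK-J4 ran from -0.014 to 0.023 for NODAL and -0.0025 to 0.188 for FOXH1, the combination from -0.076 to 0.253 for LEFTY2, cisplatin within GSK-J4 from -0.041 to 0.078 for ID1, and the interaction from -0.0047 to 0.021 for TDGF1. In sh6A+6B cells, cisplatin ran from -0.020 to 0.030 for ID1 and -0.021 to 0.044 for ID2. The difference between the lines in the cisplatin effect ran from -0.067 to 0.081 for LEFTY1 and -0.0072 to 0.109 for FOXH1. The cause of these turns was not tested. LEFTY2 in NT2/D1-A4 is limited by its depth, at 21 to 68 reads.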
